A study of Mus musculus with 15 samples.

Results

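A set of 10 genes was followed whose products make or package the secreted signals of neuroendocrine cells. They are the peptide precursors Calca, Calcb, Grp, Resp18, Cartpt and Npy and the amine genes Tph1, Th, Ddc and Slc18a1, which were taken by name from the 55359 genes of the deposited matrix. All 10 were listed there, and 9 had at least 1 read. RNA was sequenced from 2 cell lines derived from lung tumors of QKO mice, from the allografts they formed and from normal lung, with 3 samples in each of 5 groups. QKO tumors lack 4 tumor suppressors, of which Rbl1 is a null gene in every cell of the mice and the others, Rb1 and Trp53 among them, are floxed and lost where Cre is delivered in the airway. 46LCNEC_cell is the adherent line 46LCNEC, from a large cell neuroendocrine carcinoma raised with Ad-CMVcre, an adenovirus with a broadly active promoter, and was sampled at passage 17 from dishes A, B and C. 57SCLC_cell is the line 57SCLC, which grows in suspension and came from a small cell carcinoma raised with Ad-K5cre, where the keratin 5 promoter limits Cre to basal-type cells, and was sampled at passage 11 from flasks A, B and C. 46LCNEC_allo (tumors 312, 319 and 321) and 57SCLC_allo (tumors 275, 316 and 317) are subcutaneous tumors of those passages in immunocompetent QKO mice, so the hosts also carry the null Rbl1 gene, and Lung (CT3, CT4 and CT5) came from littermates of these hosts. Each tumor type is 1 cell line, so the spread below is between dishes, flasks, tumors or animals and not between tumors of independent origin.

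Pulmonary neuroendocrine cells are rare epithelial cells that store peptides and amines in dense-core vesicles and release them as local signals. Tumors with neuroendocrine features often keep this program, and peptides such as CGRP and bombesin-like peptides are long-known products of small cell lung carcinoma. A peptide hormone is made as a precursor that is cut and modified in the vesicle. A monoamine is made in the cytosol by hydroxylation of tryptophan or tyrosine (Tph1, Th) and decarboxylation (Ddc), and is then loaded into the vesicle by a transporter such as Slc18a1.

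Levels are given as normalized counts, the reads of a gene divided by the size factor of the library. Libraries held 9480244 (tumor 275) to 44876572 (flask C) reads, and 3 reads or fewer in a library were taken as not detected, a limit that covers counting error only. The groups were tested with limma on log2(normalized count + 1), fitted to every gene that reached 10 normalized counts in 3 or more of the samples compared. A gene was called where the p adjusted by Benjamini-Hochberg was 0.01 or less and the change was 2-fold or more. Standard errors (SE) and fold changes are on this log2 scale, which makes the change of low genes look smaller than it was. Flask C differed from flasks A and B, with a chi-square per degree of freedom of 144 against flask A where A and B had 2.80. The tumors of 46LCNEC differed from each other by 92.6 to 133, those of 57SCLC by 17.8 to 43.8, and the dishes and lungs by 7.28 to 28.4. This measure was taken on reads and grows with depth, which was greater in the flasks than in the tumors. It therefore does not rank the groups by spread alone. The neuroendocrine labels were checked against 5 markers. Chga, Syp, Scg3, Insm1 and Ncam1 were all high in 57SCLC_cell and 57SCLC_allo. In 46LCNEC_cell only Ncam1 was high, at 28614 to 31510 normalized counts, while Chga lay at 2.31 to 6.62, Scg3 at 0.938 to 2.21, Insm1 at 1.54 to 10.3 and Syp at 10.8 to 15.5. The 46LCNEC tumors had at most 18.5 of any of these 4, so of these RNA markers only Ncam1 was high in this line (3058 to 7384 in the tumors). The label in the paper also rests on protein. It reports chromogranin A staining in the LCNEC tumors, and cells of the lines stained for NCAM, SSTR2 and CGRP. Protein was not measured here, so RNA and staining were not compared. The fibroblast markers Col1a1 and Pdgfra summed to 20934 to 23535 in 46LCNEC_cell, against 19.9 to 25.6 in 57SCLC_cell and 10201 to 11789 in Lung.

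In the 57SCLC line, 6 of the 10 genes were called higher than in 46LCNEC both in culture and in allografts, namely Calca, Calcb, Resp18, Cartpt, Ddc and Slc18a1. Npy went the other way and had no read in any 57SCLC library. Th was called higher in the allografts and had too few counts to be tested in the cells. In culture, 7 of the 10 genes were tested, of which 6 were called higher and 1 lower. Of all 16920 genes tested, 23.9% were called higher and 22.2% lower. In the allografts, 7 of the 8 tested were called higher, against a background of 16.1% higher and 14.2% lower among 17502 genes. Tph1 was tested there without being called, and Npy and Grp were not tested. The members that passed the filter did so through the group where they were high, so these shares say little beyond the levels themselves.

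**Figure D1:**
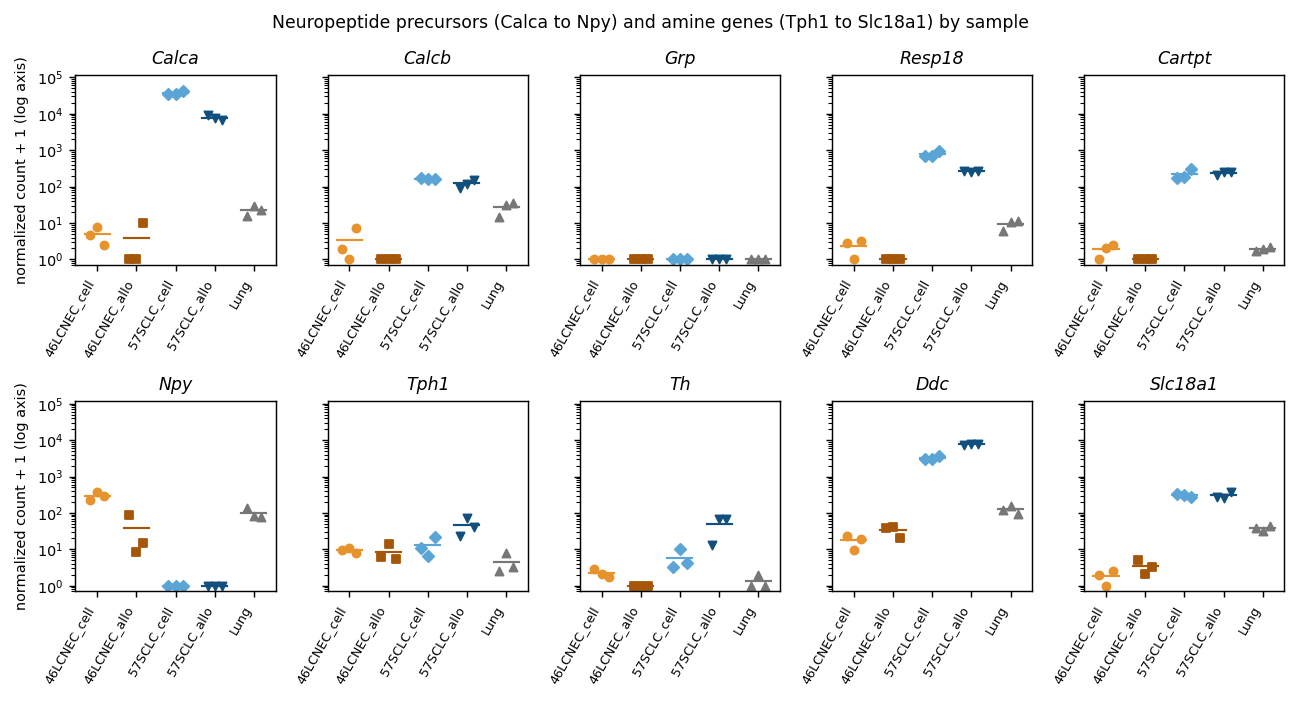
Normalized count + 1 of the 10 genes in each of the 15 samples (log axis), with 1 panel per gene, 3 points per group and a line at the mean of each group. Calca reaches 35267 to 43053 normalized counts in 57SCLC_cell, Npy is seen in 46LCNEC and Lung and not in 57SCLC, and Grp is listed at 0 throughout.

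Promoter windows were available for 7 of the 10 genes, from RefSeq on the build GRCm38.p6, which is older than the build GRCm39 used for counting. Each window runs from 250 bases before to 50 bases after an annotated start. Those of Calca (the most abundant member), Npy (the member with the opposite pattern), and Cartpt and Th (which share a motif) are shown, 5′ to 3′ on the gene's strand. Capitals mark the motifs searched on both strands, which were the cAMP response element TGACGTCA, its core TGACG, the E-box CAGCTG, the TATA box TATAAA and the GC box GGGCGG.
Calca, chr7:114636308-114636607, minus strand: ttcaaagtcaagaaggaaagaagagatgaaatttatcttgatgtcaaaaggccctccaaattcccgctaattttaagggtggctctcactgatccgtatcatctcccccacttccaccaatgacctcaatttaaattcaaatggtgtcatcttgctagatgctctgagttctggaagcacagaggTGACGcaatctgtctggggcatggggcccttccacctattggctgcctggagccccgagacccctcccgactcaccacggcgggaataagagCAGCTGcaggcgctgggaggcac
Npy, chr6:49822460-49822759, plus strand: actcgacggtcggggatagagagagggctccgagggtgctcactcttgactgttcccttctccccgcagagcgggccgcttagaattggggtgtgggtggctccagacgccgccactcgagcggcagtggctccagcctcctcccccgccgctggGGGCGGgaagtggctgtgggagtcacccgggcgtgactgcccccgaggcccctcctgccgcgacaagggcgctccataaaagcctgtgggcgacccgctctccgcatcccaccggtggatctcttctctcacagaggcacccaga
Cartpt, chr13:99900634-99900933, minus strand: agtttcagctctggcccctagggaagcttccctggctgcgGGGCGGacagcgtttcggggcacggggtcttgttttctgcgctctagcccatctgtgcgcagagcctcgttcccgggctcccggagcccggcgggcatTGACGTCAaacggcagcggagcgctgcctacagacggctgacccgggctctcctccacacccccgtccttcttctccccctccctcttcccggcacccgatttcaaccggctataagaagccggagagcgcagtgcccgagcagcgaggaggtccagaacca
Th, chr7:142899946-142900245, minus strand: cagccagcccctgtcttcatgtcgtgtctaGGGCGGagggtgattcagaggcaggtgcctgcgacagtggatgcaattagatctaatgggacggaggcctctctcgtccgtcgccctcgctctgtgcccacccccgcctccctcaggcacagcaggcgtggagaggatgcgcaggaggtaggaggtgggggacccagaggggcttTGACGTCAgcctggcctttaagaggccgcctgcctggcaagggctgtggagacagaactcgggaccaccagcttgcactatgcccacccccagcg
The whole cAMP response element began 112 bases before the start of Cartpt and 45 bases before that of Th. It lay in 2 of the 9 windows of these genes (Ddc and Tph1 have 2 windows each) and in 1.79% of all 32851 windows in the table. Its core lies within it on both strands, so those matches are not separate. The core alone lay in the window of Calca and in both of Tph1, 5 of 9 windows in all, against 20.8% of all windows. The E-box was found in the windows of Calca and Resp18 (2 of 9, against 16.3%), and the GC box in those of Npy, Cartpt, Th and 1 of Tph1 (4 of 9, against 35.7%). TATAAA was found in 1 window of Ddc, against 13.6% of all. These matches are letters in a window and were not tested for function.

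Calca encodes calcitonin and, by alternative splicing, the vasodilator peptide CGRP, and the counts do not separate these transcripts. The gene (ENSMUSG00000030669, GRCm39 chromosome 7, 114230712 to 114235592, minus strand) had 35267, 35302 and 43053 normalized counts in flasks A, B and C, and 9013, 7477 and 6835 in tumors 275, 316 and 317. Lung had 14.2, 28.9 and 22.2. In 46LCNEC_cell it had 3.75, 6.62 and 1.54, which were 12 reads over 3 dishes, and in 46LCNEC_allo 8 reads in tumor 321 and none in the other tumors. The groups thus fell into a high pair, which did not overlap each other, and a low trio, in which only 46LCNEC_cell and 46LCNEC_allo overlapped. Per kilobase of merged exons, Calca ranked 29th of 24578 genes with reads in 57SCLC_cell and 148th of 24190 in 57SCLC_allo. Its log2 fold change between the lines was 13.03 in culture (SE 0.35, adjusted p = 2.45e-08, limma) and 11.82 in the allografts (SE 0.88, adjusted p = 7.17e-05). Against Lung it was 10.75 in 57SCLC_cell and 8.46 in 57SCLC_allo, with adjusted p of 1.66e-08 and 9.95e-08 by limma.

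Calcb encodes the second CGRP precursor and lies on the opposite strand of the same chromosome region (ENSMUSG00000030666, chromosome 7, 114317878 to 114322603). It had 175, 159 and 156 normalized counts in 57SCLC_cell, 93.4, 116 and 155 in 57SCLC_allo, and 13.5, 30.9 and 35.1 in Lung. The 57SCLC groups lay above Lung in every sample. In 46LCNEC_cell there were 1, 0 and 8 reads, and in 46LCNEC_allo none. Between the lines the log2 fold change was 6.09 in culture (SE 0.64, adjusted p = 4.74e-05, limma). In the allografts Calcb was at least 34.9-fold higher in 57SCLC, with the 46LCNEC tumors at a floor of 3 reads per library (adjusted p = 1.90e-05, limma).

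The ratio of this pair was set per kilobase of merged exons. Per kilobase, Calca over Calcb was 191, 210 and 260 in flasks A, B and C, and 91.2, 60.9 and 41.5 in tumors 275, 316 and 317. In Lung it was 0.997, 0.884 and 0.598, so both genes stood near the same level there. The cells and the allografts of 57SCLC did not overlap (mean 218 against 61.3, exact two-sided permutation p = 0.1, the smallest that 3 against 3 samples allow). The longest transcripts of these paralogs share 93 of 1500 bases (Calca) and 92 of 1711 bases (Calcb) in runs of 31 bases or more, and how reads with several alignments were counted is not given in the sources used here, so some reads may have been assigned to either gene.

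**Figure D2:**
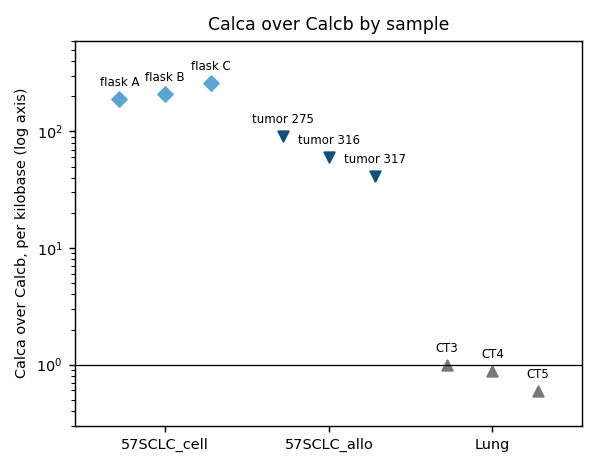
Ratio of Calca to Calcb, each per kilobase of merged exons, in each 57SCLC and Lung sample (log axis), with a line at a ratio of 1. The flasks lie at 191 to 260, the 57SCLC tumors at 41.5 to 91.2 and the lungs at 0.598 to 0.997; 46LCNEC is not drawn, since it had at most 8 reads of either gene in a library.

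Resp18 encodes a protein of dense-core vesicles first studied in the pituitary (ENSMUSG00000033061, chromosome 1, 75248842 to 75255253, minus strand). It had 672, 710 and 938 normalized counts in 57SCLC_cell and 273, 253 and 275 in 57SCLC_allo. Lung had 5.23, 9.97 and 10.5. The 46LCNEC dishes had 2, 0 and 3 reads and the tumors none. No 2 of the groups 57SCLC_cell, 57SCLC_allo, Lung and 46LCNEC_cell overlapped. The log2 fold change between the lines was 8.50 in culture (SE 0.44, adjusted p = 7.77e-07, limma), and in the allografts the gene was at least 76.6-fold higher in 57SCLC (adjusted p = 8.33e-06).

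Cartpt encodes the precursor of the CART peptides, which act in appetite and reward circuits (ENSMUSG00000021647, chromosome 13, 100034990 to 100047006, minus strand). It had 167, 185 and 297 normalized counts in 57SCLC_cell and 208, 243 and 244 in 57SCLC_allo, and these groups overlapped. Each lung had 1 read, the dishes had 0, 1 and 2, and the 46LCNEC tumors had none. With only 3 reads over the dishes, the pooled ratio of 57SCLC_cell to 46LCNEC_cell was 239, with a 95% counting interval of 81.5 to 1159 (adjusted p = 1.37e-06, limma). In the allografts it was at least 66.6-fold higher in 57SCLC (adjusted p = 9.39e-06). Against Lung, also with 3 reads in all, the ratio was 233 for the cells (79.5 to 1132) and 252 for the allografts (85.6 to 1225), and both were called.

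Npy encodes neuropeptide Y, a transmitter of sympathetic nerves that is also made by other cells (ENSMUSG00000029819, chromosome 6, 49799026 to 49806489, plus strand). It had 229, 375 and 294 normalized counts in 46LCNEC_cell and 137, 82.8 and 74.9 in Lung. The tumors of 46LCNEC held 87.4 (tumor 312), 7.37 (tumor 319) and 14.4 (tumor 321), so 1 tumor lay within the range of Lung and the others below it. All 6 libraries of 57SCLC had no read. 46LCNEC_cell stood above Lung in every sample, with a log2 difference of 1.62 (SE 0.26, adjusted p = 0.000339, limma). That call was lost with all 15 samples in 1 model (adjusted p = 0.0295) and on a test against a fold change of 2 (adjusted p = 0.0485). Npy was at least 179-fold lower in 57SCLC_cell than in 46LCNEC_cell (adjusted p = 3.92e-08), and at least 58.8-fold lower in the cells and 19.9-fold lower in the allografts of 57SCLC than in Lung. Between the allografts it was at least 7.36-fold lower in 57SCLC on the mean, with no test since only 2 of the 6 tumors reached 10 normalized counts. Platelets are a blood component known to hold Npy in mice. Their markers Ppbp and Pf4 summed to 2266 to 2770 in Lung, 258 to 527 in 46LCNEC_allo and 12.2 to 22.1 in 46LCNEC_cell. In 57SCLC, without a read of Npy, they summed to 144 to 376 in the allografts and 0 in the cells. Their part in the level of Npy was not tested.

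Grp encodes gastrin-releasing peptide, the mammalian counterpart of bombesin, and lies on chromosome 18 (ENSMUSG00000024517). It was listed at 0 in all 15 libraries, lung included. B2m, the light chain of MHC class I that nearly all cells make, was also listed at 0 in all 15, so a listed 0 need not mean an absent transcript, and no level or difference is given for Grp. The antisense gene Gm30094 overlaps 31 bases of its exons and had up to 77 reads in a library of 57SCLC_cell, 60 in 57SCLC_allo and 8 in Lung.

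Ddc encodes aromatic L-amino acid decarboxylase, the step shared by serotonin and dopamine synthesis (ENSMUSG00000020182, chromosome 11, 11762602 to 11848150, minus strand). It was the highest of these amine genes per kilobase in 57SCLC, with 3024, 3063 and 3641 normalized counts in 57SCLC_cell and 7337, 7610 and 7892 in 57SCLC_allo. Lung had 120, 157 and 94.8, 46LCNEC_allo 38.4, 38.9 and 19.9, and 46LCNEC_cell 22.5, 8.83 and 18.5. Only the groups of 46LCNEC overlapped. Between the lines the log2 fold change was 7.61 in culture (SE 0.30, adjusted p = 1.70e-07, limma) and 7.89 in the allografts (SE 0.27, adjusted p = 6.91e-06). Per kilobase of merged exons it ranked 1175th of 24190 genes in 57SCLC_allo and 3406th of 24578 in 57SCLC_cell. Levels per kilobase depend on the length used: over the longest transcript the mean of Ddc is 1514 in place of 739 in 57SCLC_allo and 645 in place of 315 in 57SCLC_cell. The antisense gene 1700042O10Rik shares 421 bases with its exons and had no read.

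Slc18a1 encodes the vesicular monoamine transporter of endocrine cells (ENSMUSG00000036330, chromosome 8, 69490135 to 69541887, minus strand). It had 338, 317 and 280 normalized counts in 57SCLC_cell and 275, 259 and 370 in 57SCLC_allo, which overlapped. Lung had 37.4, 31.9 and 42.1, and no library of 46LCNEC had more than 3 reads. The pooled ratio of 57SCLC_cell to 46LCNEC_cell, where the dishes held 3 reads, was 339 (95% counting interval 116 to 1646, adjusted p = 4.00e-07, limma), and the log2 fold change in the allografts was 6.54 (SE 0.42, adjusted p = 3.87e-05). Its widely expressed relative Slc18a2, the transporter of neurons and mast cells, was not called in either line comparison, at -0.68 (adjusted p = 0.00431, limma) in culture, which is under 2-fold, and 0.44 in the allografts (adjusted p = 0.125). Slc18a2 had 231 to 330 normalized counts in 57SCLC_cell, 404 to 460 in 46LCNEC_cell, 290 to 318 in 57SCLC_allo, 172 to 275 in 46LCNEC_allo and 221 to 247 in Lung.

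The hydroxylases that open each amine pathway stood far below Ddc per kilobase, at means of 7.207 (Tph1) and 6.87 (Th) normalized counts against 739 in 57SCLC_allo and 1.93 and 0.672 against 315 in 57SCLC_cell. Tph1, the tryptophan hydroxylase of tissues outside the brain (ENSMUSG00000040046, chromosome 7, 46294065 to 46321965, minus strand), had 21.5, 73.6 and 39.7 normalized counts in 57SCLC_allo and 9.82, 5.43 and 20.8 in 57SCLC_cell. The dishes had 8.44, 9.93 and 6.92, the 46LCNEC tumors 5.30, 12.6 and 4.43, and Lung 1.49, 6.98 and 2.34. Each 57SCLC tumor thus stood above every other library, by a narrow margin between tumor 275 (21.5, from 9 reads) and flask C (20.8). Its log2 fold change between the allografts was 2.40 (SE 0.58) with an adjusted p of 0.0119 by limma, just outside the threshold. It was called with DESeq2 (adjusted p = 0.00253), with library-size scaling (adjusted p = 0.00715) and without tumor 319 (adjusted p = 0.00945). Against Lung it was called (3.34, SE 0.59, adjusted p = 0.00121). Of 6 mast cell markers, a cell type that also makes Tph1, all were at 0 in 57SCLC_cell. They summed to 71.8 to 103 in 57SCLC_allo, 1.05 to 26.5 in 46LCNEC_allo and 336 to 451 in Lung. The markers did not rank these groups alike. Tpsb2 alone averaged more in 57SCLC_allo (42.8) than in Lung (37.8), while Cpa3 averaged 5.47 against 231. The part of mast cells in the level of the 57SCLC tumors was not tested.

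Th, the tyrosine hydroxylase of dopamine and noradrenaline synthesis (ENSMUSG00000000214, chromosome 7, 142443466 to 142484865, minus strand), had 11.97, 67.9 and 67.0 normalized counts in tumors 275, 316 and 317. The flasks had 2.18, 9.05 and 3.13, which were 25 reads in all, and the dishes 2, 1 and 1 reads. Among the other samples there was 1 read in Lung and none in 46LCNEC_allo. Tumor 275, the shallowest library, held 5 of the 112 reads of its group. Th was at least 14.1-fold higher in 57SCLC_allo than in 46LCNEC_allo (adjusted p = 0.000839, limma), and the ratio to Lung was 178 (95% counting interval 31.4 to 7110, adjusted p = 0.000347). Of the markers of sympathetic neurons, Dbh, which makes noradrenaline, lay at 0 to 0.545 normalized counts in 57SCLC_cell, 1.13 to 7.18 in 57SCLC_allo and 8.22 to 16.0 in Lung. The noradrenaline transporter Slc6a2 lay at 0.545 to 1.56, 1.13 to 4.79 and 592 to 1212, and the neuronal filament gene Prph at 218 to 346, 266 to 285 and 25.4 to 38.6. Their part in the level of Th was not tested.

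**Figure D3:**
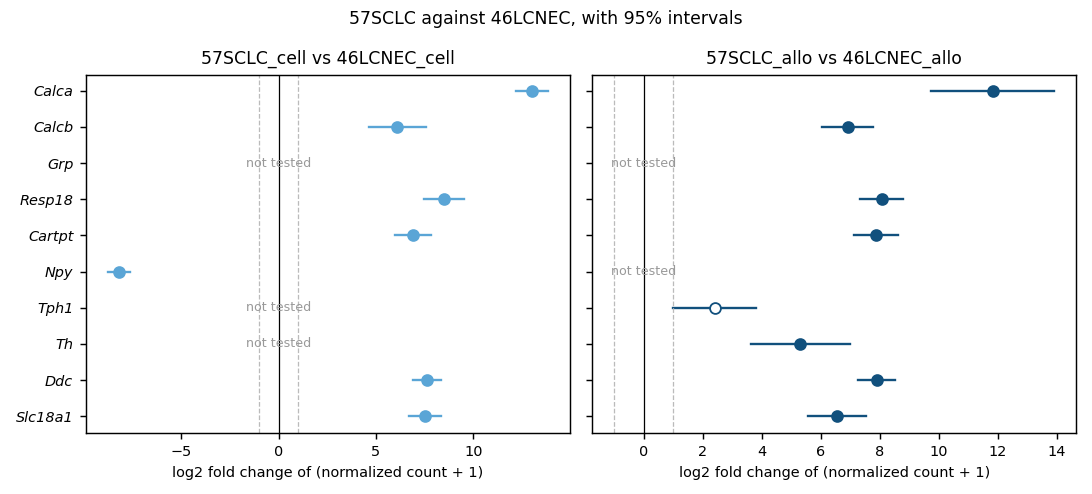
Log2 fold change of normalized count + 1 between 57SCLC and 46LCNEC for each gene, in cells (left) and in allografts (right), with 95% intervals from limma. Filled points passed the thresholds, the open point (Tph1) did not, dashed lines mark a fold change of 2, and genes with too few counts are marked as not tested. The x axes differ in range; Calca lies farthest right, at 13.03 and 11.82, and Npy is the one gene left of 0, in the cells.

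Within 57SCLC, these genes differed between allografts and cultured cells in both directions. Calca and Resp18 fell, Ddc rose, and Calcb, Cartpt and Slc18a1 were not called. Of the 10 genes, 8 were tested. Of these, 1 was called higher and 2 lower in 57SCLC_allo than in 57SCLC_cell, against 14.4% higher and 2.29% lower among all 17078 genes tested. Calca fell by 2.29 on the log2 scale (SE 0.14, adjusted p = 5.12e-06, limma), from 37874 ± 4485 to 7775 ± 1119 normalized counts (SD, n = 3). Resp18 fell by 1.52 (SE 0.14, adjusted p = 7.15e-05), from 774 ± 144 to 267 ± 11.8. Ddc rose by 1.24 (SE 0.09, adjusted p = 2.05e-05), from 3243 ± 345 to 7613 ± 278. Calls for these 3 genes held with each library left out in turn. On a test against a fold change of 2, Calca passed, while Resp18 (adjusted p = 0.0315) and Ddc (adjusted p = 0.147) did not. With all 15 samples in 1 limma model Calca (adjusted p = 0.0188) and Resp18 (adjusted p = 0.0114) lost the call and Ddc kept it.

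The other genes of 57SCLC varied more or moved less between culture and allograft. The 95% interval of the log2 fold change was -0.94 to 0.03 for Calcb, -0.37 to 0.66 for Cartpt and -0.44 to 0.32 for Slc18a1. Tph1 had 12.03 ± 7.94 normalized counts in the cells and 45.0 ± 26.4 in the tumors, and its log2 fold change of 1.83 (SE 0.56) missed the threshold at an adjusted p of 0.0316 by limma. Th had 4.78 ± 3.72 and 48.96 ± 32.04, with a log2 fold change of 2.95 (SE 0.72) and an adjusted p of 0.0124. edgeR on the recovered reads called Th (adjusted p = 0.00566), and so did DESeq2 (adjusted p = 4.36e-05). DESeq2 also called Tph1 (adjusted p = 0.00991). Without tumor 275, limma called Th as well (adjusted p = 0.00264).

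Markers of host cell types were also measured beside these changes. The endothelial markers Pecam1 and Cdh5 summed to 1938 to 2712 normalized counts in 57SCLC_allo and 35.6 to 44.3 in 57SCLC_cell. Leukocyte markers summed to 763 to 1168 against 0 to 0.545, and the fibroblast markers Col1a1 and Pdgfra to 14568 to 23274 against 19.9 to 25.6. The sum of the 5 neuroendocrine markers was 37896 to 49777 in the tumors and 45753 to 58818 in the cells, and these ranges overlapped. Within this sum the markers differed in direction. Chga was higher in the tumors (10973 to 12847 against 8951 to 9885). Syp (658 to 732 against 949 to 1074) and Scg3 (2226 to 2517 against 2765 to 3317) were lower, and the ranges of Insm1 and Ncam1 overlapped. In these bulk samples, fewer cells of a type and less RNA per cell cannot be told apart, and the part of host cells in the falls of Calca and Resp18 was not tested.

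Within 46LCNEC, only Npy and Ddc had enough counts to be tested. Npy was called lower in the allografts, 1 of the 2 tested, against 8.45% lower and 14.4% higher among all 16375 genes tested. With 2 genes tested, this share says little beyond the levels themselves. Npy fell by 3.71 on the log2 scale (SE 0.80, adjusted p = 0.00681, limma), from 300 ± 73.3 to 36.4 ± 44.3 normalized counts. This call was lost with edgeR (adjusted p = 0.0182), on the test against a fold change of 2 (adjusted p = 0.0459), and without dish A, B or C or tumor 319 or 321, where adjusted p was 0.0101 to 0.0306. Without tumor 312, the highest of the tumors, adjusted p was 0.000303. Ncam1, the neuroendocrine marker that was high in this line, was also lower in these tumors, at 3058 to 7384 against 28614 to 31510 normalized counts. Leukocyte markers summed to 1694 to 5156 against 0.769 to 5.63. Fibroblast markers summed to 138936 to 343011 against 20934 to 23535, and endothelial markers to 3779 to 6617 against 46.9 to 69.5. The part of host cells in the fall of Npy was not tested. Ddc had a log2 fold change of 0.96 (SE 0.46, adjusted p = 0.118).

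**Figure D4:**
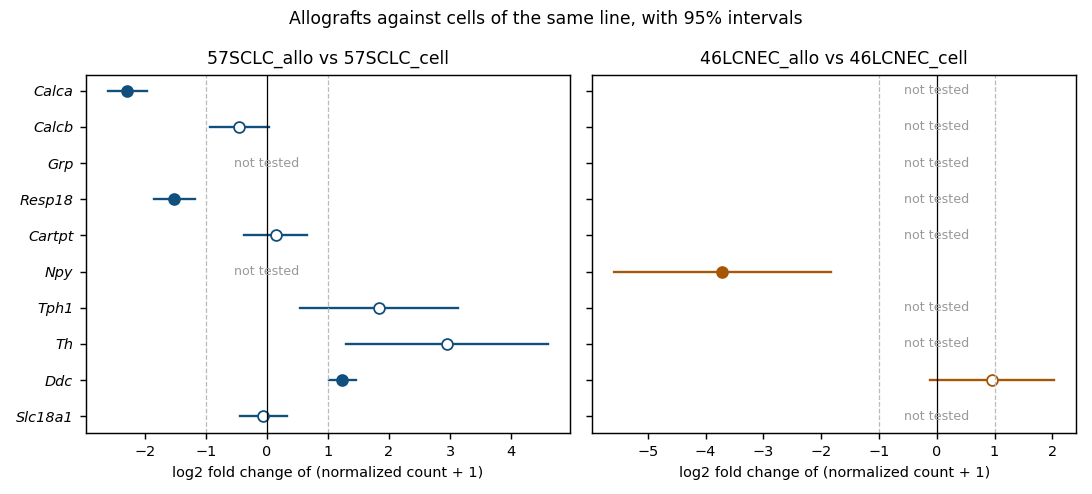
Log2 fold change of normalized count + 1 between allografts and cells of the same line, for 57SCLC (left) and 46LCNEC (right), with 95% intervals from limma. Filled points passed the thresholds (Calca, Resp18 and Ddc in 57SCLC, Npy in 46LCNEC), open points did not, and dashed lines mark a fold change of 2.

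Whether the line difference changed from culture to allograft was tested as an interaction over the 12 samples. Of the 10 genes, 9 were tested. Npy and Th were called, both toward a more positive difference in the allografts. Of 18440 genes, 10.8% were called in that direction and 6.78% in the other. For Npy the shift was 3.71 on the log2 scale (SE 0.94, adjusted p = 0.00907, limma). With 57SCLC at 0 throughout, it is the fall of Npy within 46LCNEC seen from the other side. For Th the shift was 4.09 (SE 0.90, adjusted p = 0.00416), with 46LCNEC at 4 reads in culture and none in the tumors. Neither was called by edgeR (adjusted p = 1.00 for Npy and 0.0329 for Th), and DESeq2 called Th (adjusted p = 0.00548) and not Npy (adjusted p = 0.0641). Among the 12 libraries left out in turn, Npy was called only without tumor 312, and Th lost its call without dishes A or B, flasks A or C and tumors 316 or 317 (adjusted p 0.0114 to 0.0143). The 95% interval was -0.68 to 1.23 for Ddc, -3.42 to 0.99 for Calca, -1.68 to 0.81 for Resp18 and -2.22 to 0.28 for Slc18a1. Tph1 shifted by 2.10 without being called (adjusted p = 0.0522, limma). The calls depend on the pseudocount: at 5 in place of 1, Calca (-1.97, adjusted p = 0.00754, limma) and Resp18 (-1.17, adjusted p = 0.00990) were called toward a less positive difference, and Th was lost (adjusted p = 0.0105).

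Normal lung lay between the cells of the lines for Calca, Calcb, Resp18, Ddc and Slc18a1, and its libraries serve both lines as the same comparison samples. In 57SCLC_cell, 7 of the 10 genes were tested against Lung. Of these, 6 were called higher (Calca, Calcb, Resp18, Cartpt, Ddc and Slc18a1) and Npy lower, where 21.1% of 18467 genes were called higher and 32.7% lower. In 57SCLC_allo, 9 of the 10 were tested. Of these, 8 were called higher, Tph1 and Th added, and Npy lower, against 18.9% and 26.9% of 18517 genes. Resp18 and Cartpt, and in the allografts Tph1 and Th, passed the filter through 57SCLC, and Npy through Lung alone. These shares therefore say little beyond the levels themselves. Slc18a1 was 3.04 and 2.98 higher on the log2 scale in the cells and in the allografts, with SEs of 0.18 and 0.22. Calcb was 2.68 and 2.23 higher, with SEs of 0.35 and 0.40.

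The 46LCNEC line lay below Lung for several of these genes. In 46LCNEC_cell, 5 of the 10 genes had enough counts to be tested against Lung. Calca, Calcb, Ddc and Slc18a1 were called lower and Npy higher, 4 and 1 of the 5 tested, against 35.0% lower and 20.6% higher among 18142 genes. Ddc was lower by 2.89 on the log2 scale, with 16.6 ± 7.03 normalized counts against 124 ± 31.1 (adjusted p = 5.35e-05, limma). Calca and Calcb were lower by 2.28 and 3.41 on the log2 scale, and lost the call on a test against a fold change of 2 (Calca, adjusted p = 0.0227) or with a pseudocount of 0.1 (Calcb, adjusted p = 0.0120). The pooled ratio of Lung to 46LCNEC_cell for Slc18a1, at 3 reads in the dishes, was 40.3 (95% counting interval 13.5 to 198). In 46LCNEC_allo, 5 of the 10 were also tested. Calcb, Ddc and Slc18a1 were called lower, 3 of the 5 tested, against 22.1% lower and 13.4% higher among 18033 genes. In both comparisons Calca, Calcb and Slc18a1 passed the filter through Lung alone, so these shares say little beyond the levels themselves. Calcb was at least 7.61-fold lower in 46LCNEC_allo than in Lung. The call of Ddc was lost without any 1 of the lung samples CT3, CT4 and CT5 (adjusted p 0.0112 to 0.0213). Calca missed the threshold (adjusted p = 0.0193) and passed it without tumor 321 (adjusted p = 0.000378), which held all 8 reads of its group. Npy missed it (adjusted p = 0.0721) and passed it without tumor 312 (adjusted p = 0.00278).

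Peptides must be cut to become active, and 6 genes of this processing were measured. Of these, 4 were called higher and none lower in 57SCLC both in culture and in the allografts, where 23.9% and 16.1% of all genes were called higher. Over the list the median of the log2 fold changes was 3.997 and 7.001, where over all genes it was 0.00 and 0.01. Pcsk1 and Pcsk2 passed the filter through 57SCLC, where they were high, so the count and the medians say little beyond the levels themselves. Pcsk1, a prohormone convertase, had 9620 to 10073 normalized counts in 57SCLC_cell and 0 to 2.31 in 46LCNEC_cell, and it was called lower in 57SCLC_allo (3198 to 4585) than in the cells. Pcsk2, the other neuroendocrine convertase, had 2652 to 3515 in 57SCLC_cell and 0.938 to 3.84 in 46LCNEC_cell. Scg5, a chaperone of Pcsk2, and Pcsk1n, an inhibitor of Pcsk1, were the other genes called, and the carboxypeptidase Cpe and the amidating enzyme Pam were not called.

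Among 38 other peptide hormone precursors, 11 had enough counts to be tested in culture, of which 5 were called higher and 3 lower in 57SCLC, and the median difference was 0.64 on the log2 scale (over all genes 23.9% were called higher and 22.2% lower). In the allografts 12 were tested, of which 4 were called higher and 2 lower, with a median of 0.80 (over all genes 16.1% higher and 14.2% lower). Pomc, the precursor of ACTH, was higher in both settings, at 107 to 123 normalized counts in 57SCLC_cell and 170 to 189 in 57SCLC_allo against 4.61 and 9.27 at most in 46LCNEC. Ucn2, a urocortin of the CRH family, was the reverse, with 425 to 489 in 46LCNEC_cell, 343 to 555 in 46LCNEC_allo and at most 16.8 in 57SCLC. Pthlh, which encodes the parathyroid hormone-related protein, had 42.2 to 89.2 and 135 to 220 in 46LCNEC and at most 2.39 in 57SCLC. Trh, Ghrh, Npw and Nppb were the others called higher in culture, and Nmu the other called lower. Npw and Nppb were higher in 57SCLC in both settings, but Npw stood far higher in Lung, at 672 to 709 normalized counts against 52.7 at most in 57SCLC. Nmb, a bombesin-like peptide related to Grp, was called in the allografts (1.57 on the log2 scale, adjusted p = 0.0047, limma), while in culture its difference of 0.64 was under 2-fold (adjusted p = 0.00336). It had 135 to 139 in 57SCLC_cell, 84.0 to 108 in 57SCLC_allo, 85.3 to 92.9 in 46LCNEC_cell and 23.8 to 39.8 in 46LCNEC_allo.

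The other amine genes were called in both directions. Of 16, 10 were tested in each line comparison, with 2 called higher and 4 lower in culture and 1 each way in the allografts, and medians of -0.68 and 0.23. Over all genes 23.9% were called higher and 22.2% lower in culture, and 16.1% and 14.2% in the allografts. The genes that make tetrahydrobiopterin, the cofactor of Tph1 and Th, were split. Gch1, which opens that pathway, was higher in 57SCLC in both settings (2463 to 2575 against 283 to 331 normalized counts in the cells), and Spr, which closes it, was lower in both (178 to 246 against 1905 to 2078). Pts, the middle step, was higher in culture alone among the calls (683 to 723 against 144 to 173). Maoa, which breaks down serotonin and noradrenaline, was lower in 57SCLC_cell (30.5 to 42.2 against 556 to 614), as were the serotonin transporter Slc6a4 (3.02 to 5.21 against 13.1 to 20.0) and the brain tryptophan hydroxylase Tph2 (1.64 to 9.38 against 38.6 to 44.1). Hdc, which makes histamine, rose in 57SCLC_allo against the cells (31.1 to 55.2 against 2.61 to 10.3), and so did the mast cell sum (71.8 to 103 against 0), whose part in it was not tested. Hdc was also called higher in 46LCNEC_allo than in its cells (84.2 to 106 against 3.08 to 17.7). The mast cell sum there was 1.05 to 26.5 against 0 to 3.08. Lung had 2923 to 4380 normalized counts of Hdc, and each cell and tumor group was called lower than Lung. Maob, Slc6a2 and Pnmt had no more than 54.3 normalized counts in any cell or tumor library and were called lower than in Lung in each group tested, apart from Pnmt in 57SCLC_allo. Pcbd1, which recycles the cofactor, was called higher in 57SCLC_allo than in Lung (414 to 527 against 156 to 195).

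Among the receptors for these products, calls also went in both directions. Of 29, 15 were tested in culture, with 4 called higher and 8 lower in 57SCLC (median log2 fold change -1.21), and 16 in the allografts, with 5 called higher and 2 lower (median 0.16). The shares over all genes are those given for the amine genes, and 4 of 15 higher is near that of 23.9%. Npy1r, a receptor of neuropeptide Y, had 2482 to 3325 normalized counts in 57SCLC_cell and 1745 to 2195 in 57SCLC_allo, the line without Npy reads, against 105 to 139 and 0 to 9.96 in 46LCNEC. Npy4r, whose main ligand is pancreatic polypeptide, had 686 to 723 in 46LCNEC_cell and at most 2.65 in its tumors. Drd2, a dopamine receptor, had 1413 to 1551 and 1551 to 1939 in the cells and tumors of 57SCLC and at most 5.53 in 46LCNEC. The serotonin receptor Htr1b was higher in 46LCNEC_cell (590 to 775 against 169 to 319). Calcrl and Ramp2, which form receptors for adrenomedullin and, with other partners, CGRP, stood at 25967 to 29758 and 8499 to 9483 normalized counts in Lung. They were called higher in 57SCLC_allo than in the cells, where Calcrl had at most 2.08. Endothelial markers were also higher in these tumors (above), and their part in the levels of Calcrl and Ramp2 was not tested.

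**Figure D5:**
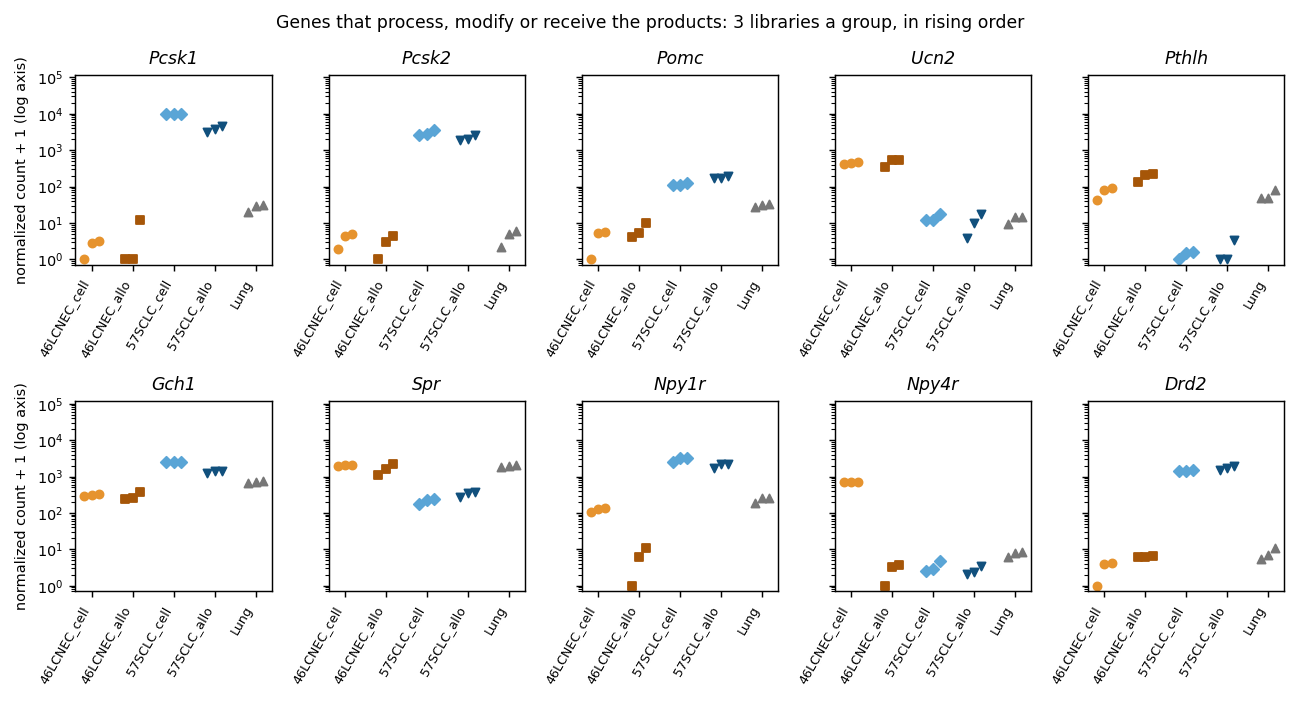
Normalized count + 1 (log axis) of 10 genes that process, modify or receive the products or encode other peptides, with the 3 libraries of each group in rising order. Pcsk1, Pcsk2, Pomc, Gch1, Npy1r and Drd2 are higher in 57SCLC, while Ucn2, Pthlh and Spr are higher in 46LCNEC and Npy4r in 46LCNEC_cell alone; these 10 were picked for drawing after their values were seen.

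For the 7 genes with a mean of at least 50 normalized counts, the genes with the most similar profile were sought by Pearson's r of log2 values over the 15 samples, among 15072 genes. Calca was most like Fa2h (r = 0.993), Nefh (0.992) and Insm1 (0.991), and Ddc was most like Kcnip3 (0.992), 4930428N03Rik and Casr. For Resp18 they were Rps6kl1 (0.992), Grm3 and Dab1, for Cartpt Tubgcp3 (0.992), St8sia5 and Ankrd10, and for Slc18a1 1700019D03Rik (0.992), Pla2g2c and Panx2. Calcb was nearest to Spryd7 (0.987), Dsg2 and 4930412C18Rik, and Npy to Prkci (0.985), Tmem43 and Plpp1. The 15 points fall into 5 groups that share a line or tissue, so these values describe the pattern over groups and are not evidence of a tie between genes.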

How the data were processed

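RNA from 15 samples in 5 groups of 3 was sequenced after poly-A selection. Per the study's methods, the authors aligned reads to GRCm39 with Rbowtie2, which does not align across splice junctions, counted them per gene with featureCounts and GENCODE M27, and normalized with DESeq2. Strand and multi-mapping settings are not given in the sources used here. The deposited signal values are these gene counts divided by a size factor per library. All values were whole multiples of the value of 1 read (tolerance 0.01), so reads were recovered, 9480244 to 44876572 per library with a median of 26502525. 

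Log2(normalized count + 1) was tested with limma 3.58.1 (R 4.3.3) with a mean-variance trend, without covariates, between the groups named, on every gene that reached 10 normalized counts in 3 or more of the samples compared. P-values were adjusted by Benjamini-Hochberg over all genes tested, and a call needed an adjusted p of 0.01 or less and a change of 2-fold or more. The interaction was fitted over 12 samples. The fits were tested on simulated data. The p-values measure the spread between dishes, flasks, tumors or animals of 1 line or tissue, and comparisons that share a group are not independent. Alternatives were edgeR 4.0.16 and DESeq2 1.42.0 on the recovered reads, library-size scaling, pseudocounts of 0.1 and 5, no filter, an adjusted p of 0.05, a test against a fold change of 2, 1 model over all samples, the letter as a block and each library left out.

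Positions and exon lengths came from GENCODE M39. Counting intervals are exact 95% binomial intervals on pooled reads and bounds used 3 reads per library, and both cover counting error only. All 10 genes were named, with at most 6 called genes per related list by mean level plus every called amine gene, and 3 genes per profile. Other genes were named after their values were seen. The 10 genes, the lists and the tests were chosen with earlier results of these data known. A marker gene is not reported here.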

Additional observations from a re-analysis of the deposited data

Results flagged for a closer look

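The difference between the lines (57SCLC minus 46LCNEC, log2 of normalized count + 1) was called as different between allografts and culture for Npy and Th, by the interaction term of limma over the 12 cell and tumor samples. For Npy the difference in allografts exceeded that in cells by 3.71 (adjusted p = 0.00907), with all 57SCLC libraries at 0 and the 46LCNEC libraries at 7.37 to 87.4 normalized counts in tumors and 229 to 375 in dishes. For Th it exceeded that in cells by 4.09 (adjusted p = 0.00416), with 57SCLC at 11.97 to 67.9 in tumors and 2.18 to 9.05 in flasks, and 46LCNEC at 0 in tumors and at most 1.88 in dishes. The calls changed with the setting. Of 9 other settings Npy was called in 4 and Th in 6, of 12 fits that each left out 1 library Npy was called in 1 and Th in 6, and edgeR called neither.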

How the results depend on the processing

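In culture, the 7 genes called between the lines stayed at a count of 7 under every alternative, the letter of dish and flask as a replicate block included, and with any library left out (7 to 7). The letters share only a name: deviations of same-letter dishes and flasks correlated at 0.0916, -0.0837 and -0.00619 over 16920 genes. Leaving out 1 library gave 7 to 9 calls between the allografts, 5 to 5 for 46LCNEC_cell against Lung, 2 to 4 for 46LCNEC_allo against Lung, 7 to 7 and 9 to 9 for the cells and allografts of 57SCLC against Lung, 3 to 4 between allografts and cells of 57SCLC, 0 to 1 in 46LCNEC, and 0 to 2 for the interaction. A test against a fold change of 2 lowered 46LCNEC_cell against Lung from 5 to 3, the allografts against cells of 57SCLC from 3 to 1 and of 46LCNEC from 1 to 0 (1 at an unadjusted p under 0.05), and the interaction from 2 to 0 (2 unadjusted). edgeR gave 0 for 46LCNEC allografts against cells (1 unadjusted) and 0 for the interaction (3 unadjusted). DESeq2 gave 5 for 57SCLC allografts against cells, as did an adjusted p of 0.05, and 1 for the interaction, as did a pseudocount of 0.1 and no filter, while a pseudocount of 5 gave 3, of which 2 (Calca and Resp18) were lower. Of the per-kilobase levels, 17 moved with the longest transcript. With all 15 samples in 1 model, 46LCNEC_allo against Lung went from 3 to 6. For these counts the cause was not tested. 

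Fold changes that turned their direction were none of them called. Between allografts and cells of 57SCLC, Cartpt was -0.020 without flask A (leave-one-out range -0.020 to 0.39) and Slc18a1 0.039 without tumor 316 (range -0.22 to 0.039). In the interaction, Calca was 0.68 with a pseudocount of 0.1, Resp18 was 2.30 with edgeR, 1.27 with DESeq2, 1.44 with a pseudocount of 0.1 and 0.11 without dish B (range -0.75 to 0.11), and Ddc was -0.030 without tumor 321 (range -0.030 to 0.65). Without the filter Npy was called between the allografts (-4.49). Library-size scaling shifted the median of all genes to 0.24 in culture and 0.28 in the allografts, where calls went from 2821 higher and 2491 lower to 3576 and 1964. Low counts limit Th, Tph1 and every gene in 46LCNEC apart from Npy in the dishes. In the 46LCNEC tumors Npy had 7 to 66 reads. Ddc had 8 to 24 reads in the dishes and 18 to 37 in these tumors.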
